A study of Rattus norvegicus with 20 samples.

Results

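Genes of mitochondrial protein import, mitochondrial protein quality control and inner membrane fusion were examined in retroperitoneal tissue of rats given rosiglitazone or resveratrol, of obese rats and of lean control rats. The members were all genes with a single symbol that starts with Timm or Tomm, together with 17 named genes of mitochondrial chaperones, proteases, fusion and cristae. They numbered 36 of 14557 genes tested: 9 Tomm genes, 14 Timm genes and 13 of the 17 named genes. Hspd1, Mfn1, Mfn2, Immt and Timm23 had no feature with a single symbol and were not analysed here. Where a gene had several features the brightest was used, which applied to 1 member, Timmdc1. That gene is included by its name, although its protein is known as an assembly factor of respiratory complex I.

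Nearly all mitochondrial proteins are made in the cytosol and imported. Receptors and a channel in the outer membrane, the TOM complex, take them in, small chaperones escort them across the intermembrane space, and TIM complexes pass them into or through the inner membrane. A motor built around the chaperone Hspa9 pulls chains into the matrix, a processing peptidase removes their targeting sequence, chaperonins fold them, and proteases degrade those that fail. Opa1 fuses inner membranes and Chchd3 belongs to the MICOS complex at cristae junctions. Brown and beige adipocytes, which burn fat for heat, are rich in mitochondria, while white adipocytes store fat. Roles are given here as known from yeast and human cells.

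The study used male Zucker diabetic fatty (ZDF) rats and put RNA of 20 samples, 5 in each of 4 groups, on whole-transcript arrays. The groups were labelled rosiglitazone, resveratrol, obese and lean control. Rosiglitazone is a drug that activates PPARG, a nuclear receptor of fat cells, and resveratrol is a polyphenol found in grapes. Lean control rats ate standard chow and obese rats a stock diet for 6 weeks; all rats were caged singly on a reversed light cycle with free access to food and water. The sources used here do not give the doses, the diet of the treated rats or whether these were obese. Comparisons of treated with obese rats take it that they were, and between obese and lean control rats diet and obesity cannot be told apart. The labels number the arrays of a group as biological replicates and say no more of the animals behind them, so p-values measure the spread between these samples, part of which may be technical.

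Values are log2 levels as deposited, and all differences are on the log2 scale. The threshold was an adjusted p of 0.05 in limma, with the adjustment over the 14557 genes of each comparison, and a fold is given only where both group means lay at or above the median gene level of 3.02. The tissue carried adipocyte markers on every array. The 8 measured markers averaged 9.24 to 9.93 on rosiglitazone arrays, 8.18 to 9.89 on resveratrol arrays, 9.11 to 9.91 on obese arrays and 9.74 to 9.997 on lean control arrays. In marker genes 3 of the 20 arrays stood apart. Resveratrol array 1 had a mean of 8.06 over 7 skeletal muscle markers, against at most 3.18 on any other array, and 8.70 over 6 milk protein genes. Obese array 2 had a mean of 6.43 over 5 urothelium markers, against at most 3.82 on any other array. Rosiglitazone array 2 had the highest level of brown or beige adipocyte markers. For the comparisons with rosiglitazone arrays, counts of members are given below with and without these arrays. In whole tissue, fewer cells of a type and less RNA per cell cannot be told apart.

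The sequences just upstream of 4 members are shown, because Timm44 and Chchd3 had the largest differences between rosiglitazone and obese arrays, and Timm8b and Hspe1 are the members whose windows hold a nuclear receptor half-site. Each is the 250 bases before the transcription start in GRCr8, from RefSeq, read 5′ to 3′ on the strand of the gene. Capitals mark matches to the patterns described next, and Timm44 has none.
Timm44, chr12:7427126-7427375, minus strand: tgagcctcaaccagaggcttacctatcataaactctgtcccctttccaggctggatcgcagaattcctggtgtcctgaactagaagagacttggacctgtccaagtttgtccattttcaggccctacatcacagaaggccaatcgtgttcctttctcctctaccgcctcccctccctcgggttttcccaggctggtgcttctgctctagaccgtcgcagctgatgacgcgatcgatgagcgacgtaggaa
Chchd3, chr4:62584034-62584283, minus strand: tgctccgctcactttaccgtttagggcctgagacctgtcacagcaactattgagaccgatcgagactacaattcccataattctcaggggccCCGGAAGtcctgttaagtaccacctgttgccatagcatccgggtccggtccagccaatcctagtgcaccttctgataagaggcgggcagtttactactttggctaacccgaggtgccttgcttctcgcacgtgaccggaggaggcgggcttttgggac
Timm8b, chr8:59850487-59850736, plus strand: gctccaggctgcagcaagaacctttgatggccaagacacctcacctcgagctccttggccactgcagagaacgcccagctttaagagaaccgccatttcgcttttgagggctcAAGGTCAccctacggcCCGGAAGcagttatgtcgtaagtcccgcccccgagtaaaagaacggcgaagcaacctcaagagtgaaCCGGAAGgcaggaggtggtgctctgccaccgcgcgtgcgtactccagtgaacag
Hspe1, chr9:64084077-64084326, plus strand: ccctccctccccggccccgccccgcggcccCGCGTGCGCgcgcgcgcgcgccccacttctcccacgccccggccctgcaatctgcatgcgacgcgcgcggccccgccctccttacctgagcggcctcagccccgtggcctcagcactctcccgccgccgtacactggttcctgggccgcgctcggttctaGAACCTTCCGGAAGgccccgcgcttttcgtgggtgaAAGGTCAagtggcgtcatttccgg

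The patterns chosen were searched on both strands of these windows. They were GCGCANGCG for NRF1, a factor of nuclear genes for mitochondrial proteins, CCGGAAG for the ETS family and AAGGTCA for a nuclear receptor half-site. The others were GAANNTTC for a heat shock element and AGGTCANAG, the first part of the direct repeat bound by PPAR. A match to that part is not a whole repeat. Windows were matched for 30 of the 36 members and 18 of the 20 members past the threshold between rosiglitazone and obese arrays. The ETS pattern was in 14 of 30 member windows (46.7%), against 9.52% of 19005 windows of protein-coding genes. It stood in 7 of the 18 windows of members past the threshold and in 7 of the 12 other windows. The NRF1 pattern was in 7 of 30 (23.3%, against 7.20% of all windows), and the heat shock pattern in 4 of 30 (13.3%, against 6.56%), namely Clpp, Hspa9, Hspe1 and Spg7. The half-site was in 2 of 30, Timm8b and Hspe1 (6.67%, against 3.21%). The first part of the direct repeat was in 1 of 30, Timm10b (3.33%, against 1.55%), a gene that did not pass the threshold. In the Hspe1 window the heat shock match overlaps an ETS match. The neighbouring gene on the other strand upstream of Hspe1 is Hspd1, its partner chaperonin. A match describes letters in this window and no binding was measured.

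Rosiglitazone and obese arrays were compared to find which of these genes differed with the drug. In rosiglitazone arrays 20 of the 36 members were higher, none was lower and 16 did not pass; among all genes tested 7.19% were higher and 2.67% lower. Each of the 20, which were chosen on the same arrays, was above the obese mean on 5 of 5 rosiglitazone arrays. The median difference of the 36 members was 0.65, against 0.01 over all genes, and 32 of 36 differences were positive. By role, 1 of 9 TOM genes rose, 7 of 14 TIM genes, 3 of 3 chaperones and import motor genes, 2 of 2 processing peptidase subunits, 5 of 6 proteases, Opa1 and Chchd3. All 5 members with a mean under the median gene level were counted as TOM or TIM genes, and none of them passed. Of the 31 members at or above that level 20 rose. Every rosiglitazone array lay above every obese array for 19 members (6.14% of all genes did so), and above every array of the other 3 groups for 6 members (1.39% of all genes): Timm44, Hspe1, Hspa9, Pmpcb, Clpp and Chchd3. Without the 3 arrays that stood apart, 15 members rose in rosiglitazone arrays and the median difference was 0.49.

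**Figure D1:**
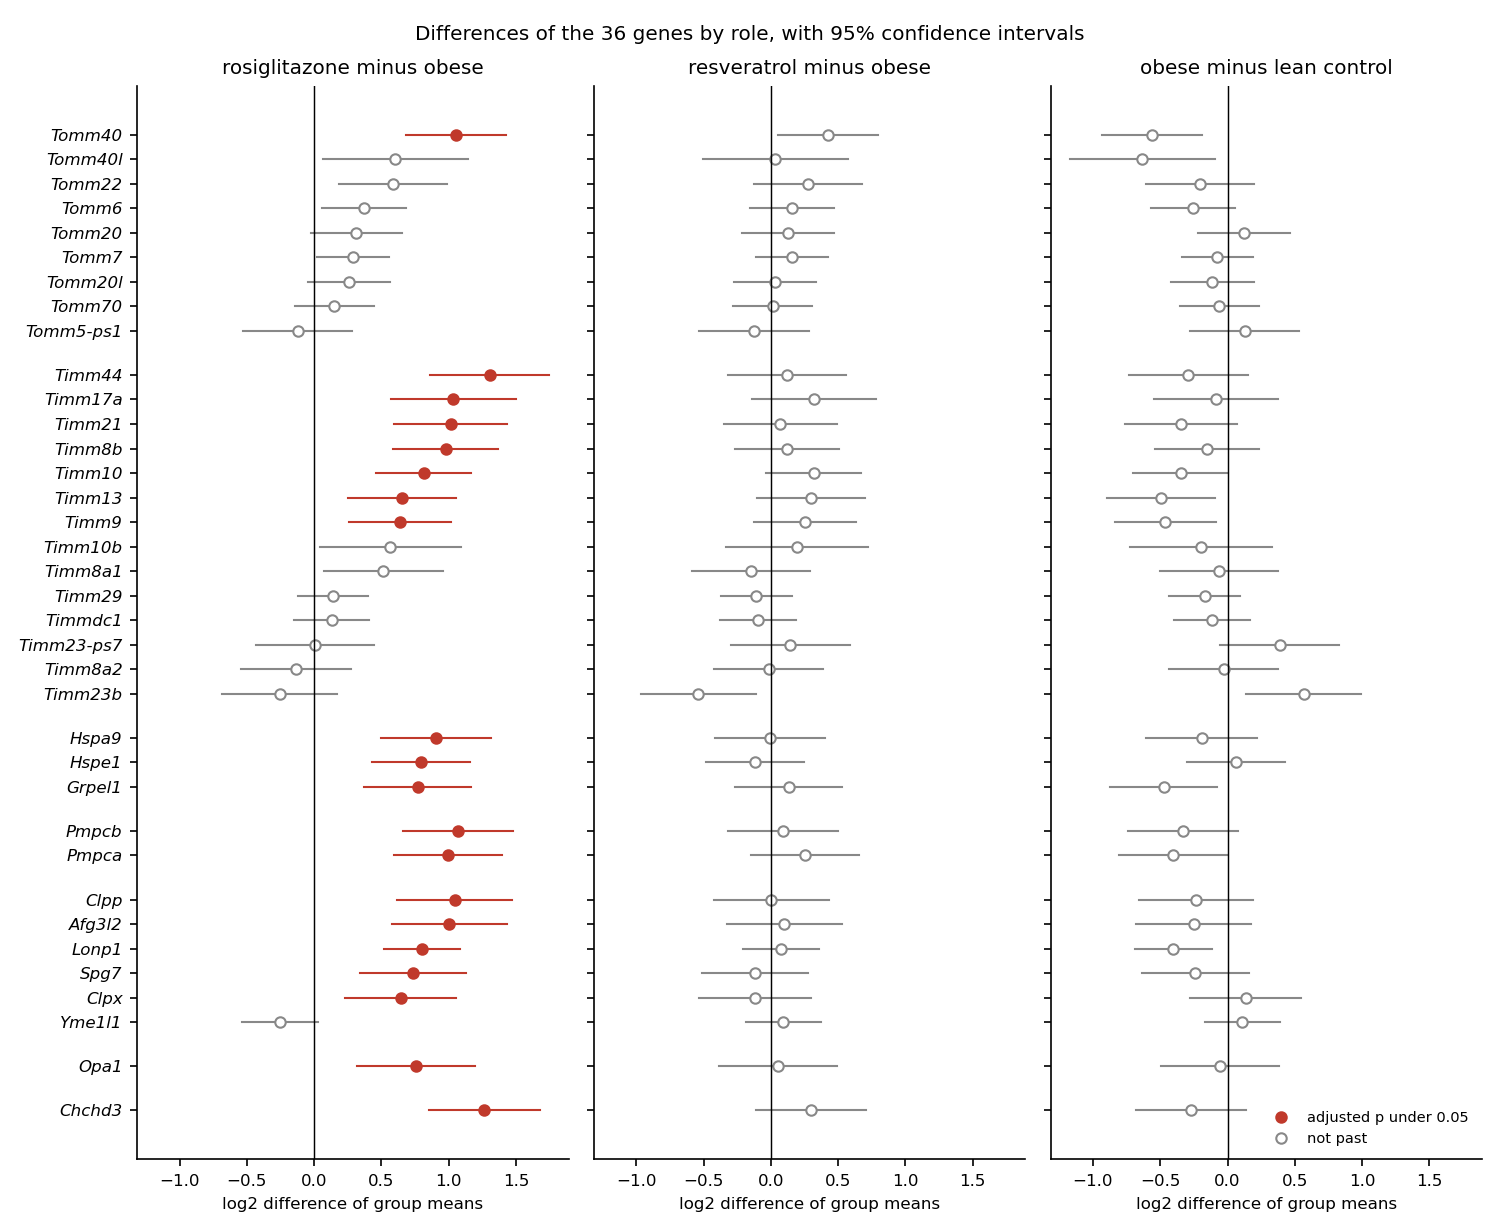
Log2 difference (x axis) of each of the 36 genes, ordered by role and then by size, for rosiglitazone minus obese, resveratrol minus obese and obese minus lean control; lines are 95% confidence intervals and filled red points passed the adjusted threshold. In the rosiglitazone panel 20 genes are filled and lie between 0.64 and 1.30, and no point is filled in the other panels.

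In the outer membrane complex the channel rose while its receptors did not pass. Tomm40, the channel, stood at 5.92, 5.99, 5.98, 5.66 and 5.73 on rosiglitazone arrays 1 to 5 and at 4.64, 5.44, 5.34, 5.38 and 5.32 on resveratrol arrays. It was 5.01, 4.84, 4.74, 5.04 and 4.40 on obese arrays and 5.91, 5.47, 5.19, 5.33 and 4.93 on lean control arrays. Every rosiglitazone array was above every obese array, and lean control array 1 reached the rosiglitazone range. Tomm40 was higher by 1.05 (SE 0.18; 2.07-fold; limma adjusted p = 0.000704). Tomm20, a receptor for presequences, was 6.37, 6.51, 6.45, 6.33 and 6.42 on rosiglitazone arrays and 6.23, 6.17, 6.19, 6.12 and 6.44 on resveratrol arrays. Obese arrays had 6.19, 5.91, 6.21, 6.20 and 6.00 and lean control arrays 5.95, 6.55, 5.55, 5.50 and 6.35. All rosiglitazone arrays were above all obese arrays for Tomm20, but the difference of 0.31 (SE 0.16) did not pass in limma (adjusted p = 0.257). The lean control arrays ranged from 5.50 to 6.55. Tomm70, the receptor for carrier proteins, was 6.16, 6.51, 6.05, 5.93 and 6.17 on rosiglitazone arrays and 5.66, 5.96, 6.21, 6.14 and 6.18 on resveratrol arrays. It was 6.07, 6.17, 6.15, 5.99 and 5.69 on obese arrays and 6.30, 6.20, 6.05, 5.82 and 6.00 on lean control arrays. The 4 groups overlapped, with a difference from obese arrays of 0.15 (interval -0.14 to 0.44, adjusted p = 0.583). The central receptor Tomm22 differed by 0.59 (SE 0.19, adjusted p = 0.0575); it passed without rosiglitazone array 4 (adjusted p = 0.0491), obese array 1 (0.0348) or obese array 4 (0.0396), and when dim genes were left out (0.0382). The small subunits Tomm6 and Tomm7 differed by 0.37 and 0.29, and Tomm40l, a relative of the channel, by 0.60 (adjusted p between 0.133 and 0.170 for these 3 genes). Tomm20l and the pseudogene Tomm5-ps1 lay under the median gene level and did not pass.

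Among the inner membrane genes the largest difference was in Timm44, which tethers Hspa9 to the TIM23 channel. Its levels were 6.19, 7.06, 5.61, 5.60 and 5.67 on rosiglitazone arrays and 5.01, 4.94, 4.83, 4.63 and 4.80 on resveratrol arrays. Obese arrays had 4.85, 4.46, 4.86, 4.89 and 4.54 and lean control arrays 5.24, 5.11, 4.82, 4.74 and 5.15. Every rosiglitazone array was above the other 15 arrays, and array 2 was the highest. Timm44 was higher than in obese arrays by 1.30 (SE 0.21; 2.47-fold; adjusted p = 0.00046), and by 1.05 without rosiglitazone array 2. Timm17a, a subunit of TIM23, was 6.36, 7.34, 6.22, 6.12 and 6.21 on rosiglitazone arrays and 5.28, 5.93, 5.85, 5.82 and 5.79 on resveratrol arrays. It was 5.69, 5.05, 5.48, 5.63 and 5.20 on obese arrays and 6.14, 5.36, 5.54, 5.42 and 5.04 on lean control arrays. Rosiglitazone arrays were above all obese and resveratrol arrays, and lean control array 1 lay within their range. Timm17a was higher by 1.04 (SE 0.22; 2.05-fold; adjusted p = 0.00461); another feature is shared by this gene and Timm17al1, so the near copy may contribute to the signal. Timm21, which links TIM23 to the outer membrane, was 5.44 ± 0.57 on rosiglitazone arrays and 4.43 ± 0.09 on obese arrays (SD, n = 5 each), a difference of 1.01 (SE 0.20; 2.02-fold; adjusted p = 0.00257).

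The small chaperones of the intermembrane space, which carry hydrophobic proteins, were Timm8a1, Timm8a2, Timm8b, Timm9, Timm10, Timm10b and Timm13, and 4 of these 7 rose in rosiglitazone arrays. Timm8b was 6.66 ± 0.21 on rosiglitazone arrays and 5.68 ± 0.12 on obese arrays (SD, n = 5 each), without overlap, a difference of 0.98 (adjusted p = 0.00181). Timm10 was 3.77 ± 0.40 on rosiglitazone arrays and 2.96 ± 0.29 on obese arrays, higher by 0.81 (adjusted p = 0.00405). The obese mean of Timm10 lay under the median gene level. Its partner Timm9 was higher by 0.64 (adjusted p = 0.0286), and Timm13 was higher by 0.65 (adjusted p = 0.033). The calls of both depended on single arrays. Timm9 had an adjusted p of 0.0695 without rosiglitazone array 2 and between 0.0530 and 0.0747 without obese array 1, 2 or 3, 0.129 without the 3 arrays that stood apart and 0.0848 with these groups fitted alone. Timm13 had 0.0926 without rosiglitazone array 2 and between 0.0550 and 0.0801 without rosiglitazone array 1 or 5 or obese array 1, 4 or 5, and 0.0526 with the replicate number as a block. Timm8a1, which pairs with Timm13, was 4.26, 5.17, 4.41, 3.75 and 4.90 on rosiglitazone arrays and 3.24, 4.03, 3.84, 4.13 and 3.95 on resveratrol arrays. Obese arrays had 4.0009, 3.85, 3.91, 4.22 and 3.94 and lean control arrays 4.28, 3.89, 3.81, 4.28 and 3.97. Rosiglitazone array 4 was lower than all obese arrays and the other 4 were above all of them; the difference of 0.51 had an adjusted p = 0.138, and 0.0261 without that array. Timm8a2 was dim everywhere, at 2.02, 1.61, 2.0017, 2.12 and 1.34 on rosiglitazone arrays and 1.77, 2.09, 1.94, 1.85 and 2.02 on resveratrol arrays. It was 1.91, 2.06, 1.61, 2.12 and 2.06 on obese arrays and 1.34, 2.26, 2.64, 1.95 and 1.72 on lean control arrays, with full overlap of the groups. Timm10b and the pseudogene Timm23-ps7 were also under the median gene level and did not pass.

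Timm23b, named as a copy of the channel gene Timm23, had the most negative difference of the members. It was 4.64, 5.28, 5.15, 5.26 and 5.39 on rosiglitazone arrays and 5.26, 4.92, 4.95, 4.68 and 4.50 on resveratrol arrays. Obese arrays had 5.03, 5.86, 4.97, 5.69 and 5.45 and lean control arrays 4.31, 4.63, 5.09, 4.87 and 5.28. The groups overlapped and the difference between rosiglitazone and obese arrays was -0.25 (SE 0.21, adjusted p = 0.51). Timm29, a subunit of the TIM22 carrier translocase, differed by 0.14 (interval -0.12 to 0.40), and Timmdc1 by 0.13 (interval -0.15 to 0.41).

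Matrix chaperones and the import motor rose in rosiglitazone arrays. Hspe1, the co-chaperonin of Hspd1, was 6.25, 6.80, 6.01, 5.81 and 5.98 on rosiglitazone arrays and 5.06, 5.23, 5.35, 5.45 and 5.22 on resveratrol arrays. It was 5.71, 5.00, 5.50, 5.49 and 5.18 on obese arrays and 5.02, 5.48, 5.12, 5.65 and 5.30 on lean control arrays. The lowest rosiglitazone array, at 5.81, was above all other 15 arrays, of which the highest was at 5.71. Hspe1 was higher than in obese arrays by 0.79 between the group means (SE 0.18, 1.73-fold, limma adjusted p = 0.00593). Hspa9, the matrix form of the HSP70 chaperone, was 9.90, 10.56, 9.52, 9.64 and 9.58 on rosiglitazone arrays and 8.18, 9.14, 9.07, 9.21 and 9.04 on resveratrol arrays. Obese arrays had 9.17, 8.65, 8.91, 8.86 and 9.08 and lean control arrays 9.21, 9.23, 9.20, 8.86 and 9.13. The rosiglitazone arrays again lay above all others, and resveratrol array 1 was the lowest of the 20. Hspa9 was higher by 0.91 (SE 0.20; 1.87-fold; adjusted p = 0.00523). Grpel1, the nucleotide exchange factor of Hspa9, was 4.47 ± 0.51 on rosiglitazone arrays and 3.70 ± 0.20 on obese arrays (SD, n = 5 each), higher by 0.77 (adjusted p = 0.0126; 0.0629 without the 3 arrays that stood apart).

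Both subunits of the mitochondrial processing peptidase rose. Pmpcb, its catalytic subunit, was 6.83, 7.67, 6.72, 6.84 and 6.73 on rosiglitazone arrays and 5.59, 5.95, 5.79, 6.18 and 6.39 on resveratrol arrays. It was 6.22, 5.46, 5.88, 6.05 and 5.83 on obese arrays and 6.61, 6.22, 5.83, 6.21 and 6.22 on lean control arrays. The other 4 rosiglitazone arrays lay close together, array 2 was higher, and all 5 were above the other 15 arrays. Pmpcb was higher by 1.07 (SE 0.20; 2.10-fold; adjusted p = 0.00132). Pmpca was 6.16 ± 0.31 on rosiglitazone arrays and 5.17 ± 0.44 on obese arrays (SD, n = 5 each), a difference of 0.99 (adjusted p = 0.00213).

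Of the proteases, those of the matrix and of the matrix-facing membrane complex rose and the one facing the intermembrane space did not pass. Lonp1, the ATP-dependent matrix protease, was 6.46, 6.72, 6.52, 6.35 and 6.15 on rosiglitazone arrays and 5.42, 5.63, 5.72, 5.92 and 5.89 on resveratrol arrays. Obese arrays had 5.72, 5.66, 5.63, 5.79 and 5.40 and lean control arrays 6.28, 6.17, 6.05, 5.73 and 5.99. Rosiglitazone arrays were above all resveratrol and obese arrays and overlapped lean control arrays. Lonp1 was higher than in obese arrays by 0.80 (SE 0.14; 1.74-fold; adjusted p = 0.000684). Clpp, the proteolytic core of the Clp protease, was 5.04, 5.57, 5.09, 5.37 and 4.98 on rosiglitazone arrays and 4.46, 4.39, 4.04, 4.03 and 3.95 on resveratrol arrays. It was 4.16, 3.38, 4.31, 4.77 and 4.21 on obese arrays and 4.62, 4.76, 4.47, 4.02 and 4.13 on lean control arrays. The rosiglitazone arrays were above the other 15, and obese array 2 was the lowest of all. Clpp was higher by 1.04 (SE 0.21; 2.06-fold; adjusted p = 0.00232). Its ATPase partner Clpx was higher by 0.64 (adjusted p = 0.044), a call lost without rosiglitazone array 1, 2 or 3 or any one of the 5 obese arrays (adjusted p between 0.0595 and 0.121). Clpx also missed the threshold under quantile normalisation again (adjusted p = 0.0612), with each array centred on its median (0.0564), under array weights (0.0560), with these groups fitted alone (0.0782) and without the 3 arrays that stood apart (0.0966). Afg3l2 and Spg7, the subunits of the inner membrane m-AAA protease, were higher by 1.01 (adjusted p = 0.00325) and 0.73 (adjusted p = 0.0167; 0.0509 without the 3 arrays that stood apart).

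Yme1l1, the i-AAA protease that faces the intermembrane space and cleaves Opa1, was the protease that did not pass. It was 7.67, 7.72, 7.43, 7.17 and 7.46 on rosiglitazone arrays and 7.59, 7.77, 7.95, 7.98 and 7.91 on resveratrol arrays. Obese arrays had 7.98, 7.54, 7.82, 7.76 and 7.63 and lean control arrays 7.87, 7.53, 7.63, 7.36 and 7.80. None of the 5 rosiglitazone arrays reached the obese mean, although the groups overlapped. The difference was -0.25 from obese arrays (SE 0.13, adjusted p = 0.266) and -0.35 from resveratrol arrays (SE 0.13, adjusted p = 0.138). Under quantile normalisation again and under array weights the second of these passed as lower in rosiglitazone arrays, with adjusted p = 0.0310 and adjusted p = 0.0306.

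Opa1 and Chchd3, the members of inner membrane shape, both rose. Opa1 was 7.63, 8.11, 7.41, 7.19 and 7.31 on rosiglitazone arrays and 6.20, 7.08, 6.89, 7.19 and 6.80 on resveratrol arrays. It was 7.08, 6.23, 6.99, 6.98 and 6.60 on obese arrays and 7.19, 6.83, 6.99, 6.38 and 6.77 on lean control arrays. Rosiglitazone arrays were above all obese arrays by a narrow gap, resveratrol array 4 lay just under the lowest of them and lean control array 1 just above it. Opa1 was higher by 0.76 (SE 0.21; 1.69-fold; adjusted p = 0.026), a call lost without rosiglitazone array 1 or 2 or obese array 2 or 5 (adjusted p between 0.0584 and 0.0760), or without the 3 arrays that stood apart (0.0904). Chchd3 was 8.75, 9.74, 8.26, 8.39 and 8.60 on rosiglitazone arrays and 7.68, 7.94, 7.62, 7.88 and 7.78 on resveratrol arrays. Obese arrays had 7.54, 7.66, 7.17, 7.52 and 7.53 and lean control arrays 7.97, 7.49, 7.76, 7.81 and 7.75. All rosiglitazone arrays were above the other 15. Chchd3 was higher than in obese arrays by 1.26 (SE 0.20; 2.40-fold; adjusted p = 0.000315).

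**Figure D2:**
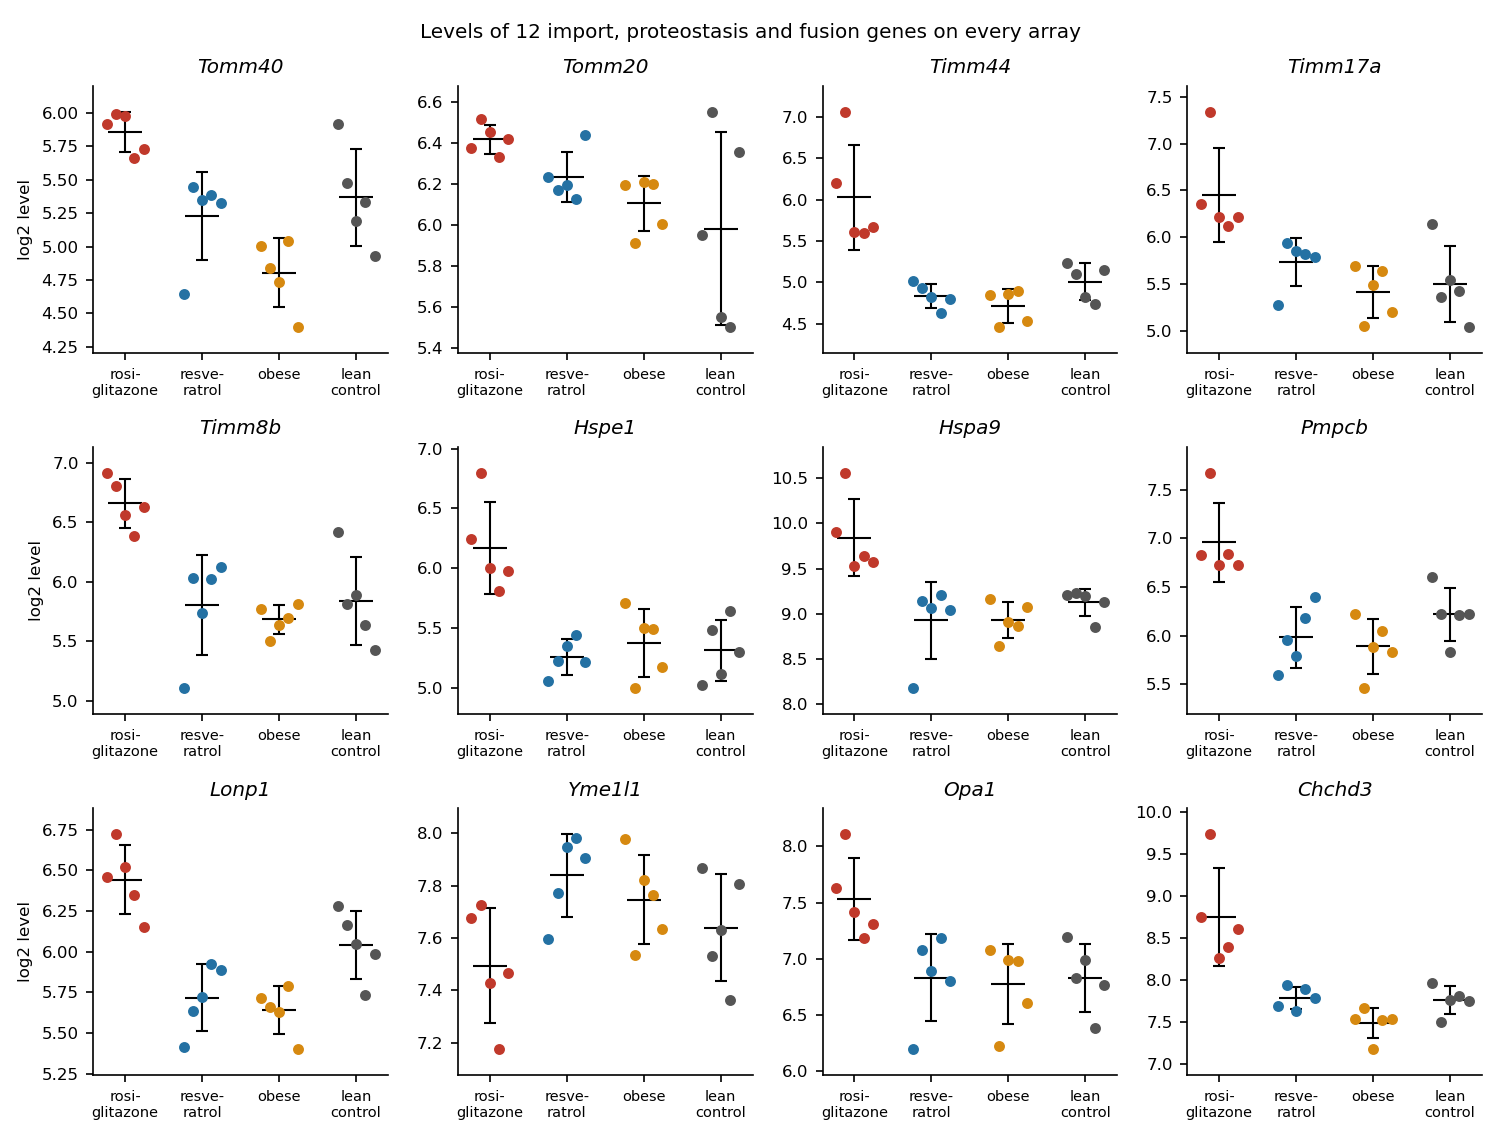
Log2 level (y axis) of 12 genes on every array by group; points are arrays 1 to 5 from left to right within a group and bars are the mean ± SD (n = 5). Rosiglitazone points lie above all obese points in 11 panels and not in the Yme1l1 panel, and rosiglitazone array 2 is the highest point of its group in every panel but that of Timm8b.

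**Figure D3:**
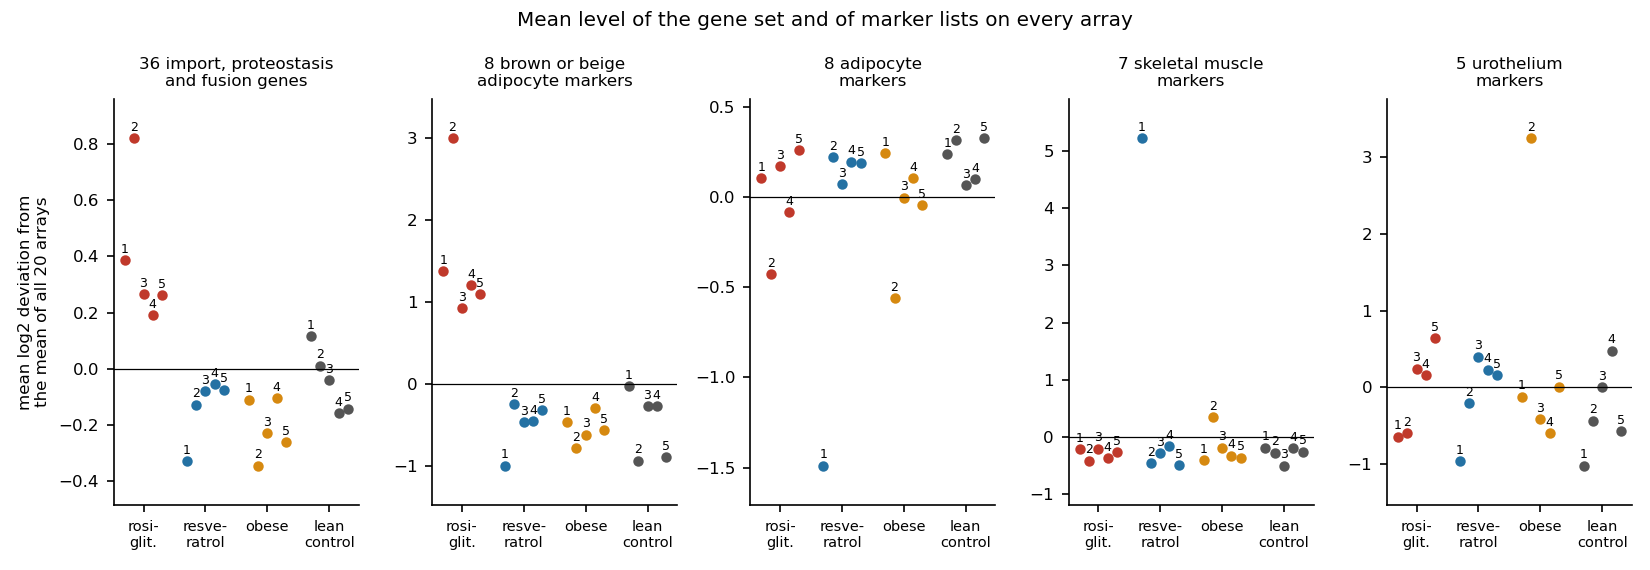
Mean log2 deviation of a gene set from its mean over all 20 arrays (y axis), for the 36 genes and 4 marker lists; each point is an array, labelled with its number, by group. Rosiglitazone array 2 is the highest in the first 2 panels, and resveratrol array 1 and obese array 2 stand apart in the skeletal muscle and urothelium panels.

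Many members were highest or lowest on the same array of a group. The mean deviation of the 36 members from their means over all arrays was 0.39, 0.82, 0.27, 0.19 and 0.26 on rosiglitazone arrays 1 to 5, and -0.33, -0.13, -0.08, -0.05 and -0.07 on resveratrol arrays. It was -0.11, -0.35, -0.23, -0.10 and -0.26 on obese arrays and 0.12, 0.01, -0.04, -0.16 and -0.14 on lean control arrays. Every rosiglitazone array was above all other 15 arrays. Rosiglitazone array 2 was the highest of its group for 28 of the 36 members, and for 19 of the 20 that passed. Resveratrol array 1 was the lowest of its group for 22 members, obese array 2 the lowest for 19, and lean control array 1 the highest for 20. These counts were not made over all genes, so they do not show a trait particular to the members.

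Markers of brown or beige adipocytes followed this pattern in part. Of 8 measured, 5 rose in rosiglitazone against obese arrays: Ucp1, the uncoupling protein of heat production, Fabp3, Cpt1b, Cidea and Ppara. The other 3 did not pass in limma: Cox8b differed by 0.98 (adjusted p = 0.227), Dio2 by 0.39 (0.178) and Elovl3 by -0.09 (0.783). Ucp1 stood at 5.83, 10.5, 4.82, 4.73 and 5.18 on rosiglitazone arrays 1 to 5, and at 1.16, 1.09, 1.21, 0.95 and 1.31 on resveratrol arrays. It was 1.22, 1.45, 1.41, 2.25 and 1.43 on obese arrays, and 2.50, 1.31, 1.30, 3.79 and 1.26 on lean control arrays. Lean control array 4 had the highest Ucp1 of its group but the lowest mean deviation of the members. The mean level of the 8 markers ranged from 5.07 to 7.14 on rosiglitazone arrays, from 3.15 to 3.90 on resveratrol arrays, from 3.36 to 3.85 on obese arrays and from 3.21 to 4.12 on lean control arrays. Rosiglitazone array 2, the highest in the members, was also the highest in this list. Without that array 16 members rose in rosiglitazone against obese arrays, with a median difference of 0.51. Of the 8 adipocyte markers none passed in limma between rosiglitazone and obese arrays, and none had an unadjusted p under 0.05; 4 of 6 endothelial markers were lower and 1, Vwf, was higher in rosiglitazone arrays, with mean levels of 5.11 to 5.47 on rosiglitazone arrays and 5.65 to 6.42 on obese arrays. The part of these cell types in the members' differences was not tested.

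Rosiglitazone and resveratrol arrays were compared to set the treatments side by side, at doses not given here. In rosiglitazone arrays 16 of 36 members were higher and none was lower, against 4.09% higher and 2.81% lower among all genes. Each of the 16, which were chosen on the same arrays, was above the resveratrol mean on 5 of 5 rosiglitazone arrays. They were Tomm40, Timm44, Timm21, Timm8b, all 3 chaperones and motor genes, both peptidase subunits, 5 proteases, Opa1 and Chchd3. The median difference of the members was 0.60, and it was 0.37, with 11 members past the threshold, without the 3 arrays that stood apart.

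The difference from resveratrol arrays was again largest in Timm44, at 1.18 (SE 0.21; 2.27-fold; adjusted p = 0.00172). Clpp was higher by 1.04 (SE 0.21, adjusted p = 0.00332), Pmpcb by 0.98 (SE 0.20, adjusted p = 0.00387) and Chchd3 by 0.97 (SE 0.20, adjusted p = 0.00417). Timm21 was higher by 0.94 (adjusted p = 0.00605), Hspa9 by 0.91 (adjusted p = 0.00642), Hspe1 by 0.91 (adjusted p = 0.00287) and Afg3l2 by 0.91 (adjusted p = 0.00896). Lonp1 was 6.44 ± 0.21 on rosiglitazone arrays and 5.72 ± 0.21 on resveratrol arrays (SD, n = 5 each; adjusted p = 0.00246). Timm17a missed the threshold with a difference of 0.71 (adjusted p = 0.0555) although no arrays overlapped, and passed under quantile normalisation again (0.0351) and when dim genes were left out (0.0350).

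Of the 16 calls against resveratrol 7 were lost under at least 1 alternative, 5 of them when single arrays were left out. Opa1 (difference 0.70, adjusted p = 0.0487) was lost without rosiglitazone array 1, 2, 3 or 5 or resveratrol array 1, 2, 3 or 5, with adjusted p up to 0.139, with the replicate number as a block (0.0749), with each array centred on its median (0.0523) and with these groups fitted alone (0.0792). Grpel1 (difference 0.64, adjusted p = 0.0466) was lost without rosiglitazone array 1 or 2 or any one resveratrol array, with adjusted p up to 0.121, with these groups fitted alone (0.105) and with the other variance model (0.0502). Tomm40 (difference 0.63, adjusted p = 0.0367) was lost without rosiglitazone array 1, 2 or 3 or resveratrol array 1, 3 or 5, with adjusted p up to 0.101. Clpx was lost without rosiglitazone array 2 (adjusted p = 0.0646), resveratrol array 1 (0.0599) or resveratrol array 2 (0.0533) and with these groups fitted alone (0.0631), and Pmpca without rosiglitazone array 2 (0.0695) or resveratrol array 3 (0.0635). Without the 3 arrays that stood apart Opa1 had an adjusted p of 0.198, Tomm40 of 0.170, Grpel1 of 0.163, Clpx of 0.132 and Spg7 of 0.0553. Afg3l2 was lost with these groups fitted alone (0.0536). Macrophage markers averaged 5.08 to 6.65 on rosiglitazone arrays and 7.02 to 7.45 on resveratrol arrays, and 2 of the 9 were lower in rosiglitazone arrays (median difference -0.99). Of 8 brown or beige adipocyte markers 5 were higher (median 1.96), and of 6 endothelial markers 4 were lower and 1 was higher (median -0.77). None of the 7 skeletal muscle markers passed in limma (median difference -1.08). Their mean level had a median of 2.56 on rosiglitazone arrays and 2.54 on resveratrol arrays, and resveratrol array 1 alone reached 8.06. The part of these cell types in the members' differences was not tested.

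Rosiglitazone arrays were also set against lean control arrays, the lean group. In rosiglitazone arrays 10 of 36 members were higher and none was lower, against 2.63% higher and 2.56% lower among all genes. The 10 were Timm44, Timm17a, Timm8b, Hspe1, Hspa9, Pmpcb, Clpp, Clpx, Afg3l2 and Chchd3. Each, chosen on the same arrays, was above the lean control mean on 5 of 5 rosiglitazone arrays. None of the 9 TOM genes passed in limma, and 2 of them had an unadjusted p under 0.05. The median difference of the members was 0.42. Without the 3 arrays that stood apart 11 members passed. Of these arrays only rosiglitazone array 2 belongs to the compared groups, and without it alone 6 members passed. The others enter this comparison only through the spread, which was estimated over all groups. In the same comparison 4 of 8 brown or beige adipocyte markers were higher, with a median difference of 1.86. Of 6 endothelial markers 4 were lower and 1 was higher (median -0.87), with mean levels of 5.11 to 5.47 on rosiglitazone arrays and 6.06 to 6.26 on lean control arrays. The part of these cell types was not tested.

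Timm44 exceeded lean control arrays by 1.01 (SE 0.21; 2.02-fold; adjusted p = 0.00581), Chchd3 by 0.99 (SE 0.20, adjusted p = 0.0042) and Timm17a by 0.95 (SE 0.22, adjusted p = 0.0127). Hspe1 was higher by 0.85 (adjusted p = 0.00512), Timm8b by 0.82 (adjusted p = 0.0102), Clpp by 0.81 (adjusted p = 0.0213), Clpx by 0.78 (adjusted p = 0.0226) and Afg3l2 by 0.75 (adjusted p = 0.0327). Lonp1 was 6.44 ± 0.21 on rosiglitazone arrays and 6.04 ± 0.21 on lean control arrays (SD, n = 5 each), and its difference of 0.40 had an adjusted p = 0.0965. Opa1 differed by 0.70 (adjusted p = 0.0579) and Tomm40 by 0.49 (adjusted p = 0.13). Without the 3 arrays that stood apart Opa1 passed in limma (adjusted p = 0.0385) at a smaller difference of 0.55. The count of 10 moved with single lean control arrays: it was 15 without lean control array 1, 6 without lean control array 3, 5 without lean control array 4 and 6 without lean control array 5. Without rosiglitazone array 2 it was 6, and with these groups fitted alone it was 5. Hspa9 was lost without rosiglitazone array 1 or 2 or any one of lean control arrays 2 to 5 (adjusted p up to 0.102), and Pmpcb without rosiglitazone array 2 or any one of the same lean control arrays (up to 0.0827). Afg3l2 was lost without rosiglitazone array 1 or 5 or any one of lean control arrays 2 to 5 (up to 0.0768). Clpp was lost without rosiglitazone array 2 or 4 or lean control array 4 or 5 (up to 0.0725), and Clpx without rosiglitazone array 2 or lean control array 3 or 4 (up to 0.0774). With these groups fitted alone Timm17a was lost (0.0528), as were Hspa9 (0.0573), Pmpcb (0.0603), Clpx (0.0798) and Afg3l2 (0.126). Hspa9 was also lost with the replicate number as a block (0.0586), while Timm44, Chchd3, Hspe1 and Timm8b passed under every alternative run.

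Resveratrol and obese arrays were compared to find genes that differed with resveratrol. No member passed in limma, and 0% of all genes did; at an unadjusted p under 0.05 there were 2 members and 1286 of all genes. The median difference of the members was 0.09, against 0.02 over all genes. With each array left out in turn it ranged from 0.05 to 0.15, the latter without resveratrol array 1, which carried the muscle and milk protein signal. No member passed in limma in any of these fits. The intervals show what the arrays allow: between resveratrol and obese arrays the difference of Timm44 was 0.12 (95% interval -0.32 to 0.56), of Lonp1 0.08 (-0.21 to 0.36), of Clpp 0.00 (-0.42 to 0.43) and of Opa1 0.06 (-0.38 to 0.50). The members under that unadjusted p were Tomm40, at 0.42 (interval 0.05 to 0.80, adjusted p = 0.513), and Timm23b, at -0.54 (interval -0.97 to -0.11, adjusted p = 0.48). The comparisons of rosiglitazone and of resveratrol with obese arrays share the obese arrays.

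Obese and lean control arrays were compared to find genes that differed between these rats. No member passed in limma, against 0.179% of all genes in either direction; at an unadjusted p under 0.05 there were 8 members and 1960 of all genes. Of the 36 differences 7 were positive, and how many of all genes were positive was not counted. The median was -0.20, against -0.05 over all genes, and it was -0.14 without obese array 2. Lonp1 was 5.64 ± 0.15 on obese arrays and 6.04 ± 0.21 on lean control arrays (SD, n = 5 each), a difference of -0.40 (interval -0.68 to -0.12, adjusted p = 0.207). Tomm40 was 4.80 ± 0.26 on obese arrays and 5.37 ± 0.36 on lean control arrays, a difference of -0.56 (adjusted p = 0.179). Timm13 and Grpel1 had differences of -0.50 (adjusted p = 0.265) and -0.47 (adjusted p = 0.281) and did not pass in limma. Timm23b had the largest positive difference, 0.56 (interval 0.14 to 0.99, adjusted p = 0.234). Between resveratrol and lean control arrays no member passed in limma either, against 0.124% of all genes. At an unadjusted p under 0.05 there were 4 members and 2007 of all genes. The median difference of the members was -0.09, against -0.04 over all genes.

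Further genes of the same pathways were counted in 6 lists with 78 measured genes in all, of which 34 rose in rosiglitazone against obese arrays and none fell, beside 7.19% of all genes higher and 2.67% lower. Of other import and sorting genes 9 of 14 rose, with a median difference of 0.62. Dnajc15, a J-protein of the import motor, was 6.13 ± 0.49 on rosiglitazone arrays and 4.71 ± 0.24 on obese arrays (SD, n = 5 each), higher by 1.42 (adjusted p = 0.000112). Samm50, which assembles barrel proteins in the outer membrane, was higher by 1.24 (adjusted p = 0.000593), the intermediate peptidase Mipep by 1.20 (adjusted p = 7.59e-05) and Mtx2 by 0.88 (adjusted p = 0.00421). Of other mitochondrial chaperones, proteases and scaffolds 8 of 10 rose, with a median of 0.85. The HSP90 chaperone Trap1 was 7.11 ± 0.48 on rosiglitazone arrays and 5.59 ± 0.37 on obese arrays, higher by 1.52 (adjusted p = 0.000110). Atad3a, an inner membrane ATPase, was higher by 1.08 and the prohibitin Phb2 by 1.07. Afg1l was higher by 1.22 (adjusted p = 0.00372), with an obese mean under the median gene level.

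Of genes of cristae, fission and other fusion steps 9 of 16 rose in rosiglitazone against obese arrays, with a median difference of 0.61. Chchd10, an intermembrane space protein, was 7.42 ± 0.39 on rosiglitazone arrays and 5.60 ± 0.32 on obese arrays (SD, n = 5 each), higher by 1.81 (adjusted p = 0.000250). Apoo, a MICOS subunit like Chchd3, was higher by 1.75 (adjusted p = 0.00144), its relative Apool by 0.98 (adjusted p = 0.0115) and Mtfr1l by 1.04 (adjusted p = 0.00129). Of mitophagy genes 3 of 8 rose: the receptor Optn by 1.19, Phb2, which stands in both lists, and the receptor Bcl2l13 by 0.75. Of mitochondrial stress response factors 5 of 9 rose, among them Dele1, which relays mitochondrial stress, by 0.81 (adjusted p = 0.00427), the transcription factors Ddit3 by 0.76 (adjusted p = 0.00549) and Atf4 by 0.60 (adjusted p = 0.0275), and the hormone Gdf15 by 0.75 (adjusted p = 0.0352). Gdf15 and Trib3, the last of the 5, had obese means under the median gene level. The 4 that did not pass in limma were Fgf21 (0.69, adjusted p = 0.0813), Eif2ak1 (0.46, 0.0799), Chac1 (-0.03, 0.925) and Atf5 (-0.21, 0.691). The count of 5 rested on single arrays and ranged from 2 to 4 when each array was left out in turn. It was 2 without rosiglitazone array 3, obese array 2 or obese array 5, and 3 without rosiglitazone array 1, rosiglitazone array 4 or obese array 3. Of 22 cytosolic chaperones 1 rose, a share under that of all genes; it was Bag3, by 0.65 (adjusted p = 0.0142), and the list had a median of 0.21. Bag3 did not pass without the 3 arrays that stood apart. Without these arrays 25 of the 78 genes rose, and 5 of the 14 other import and sorting genes.

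**Figure D4:**
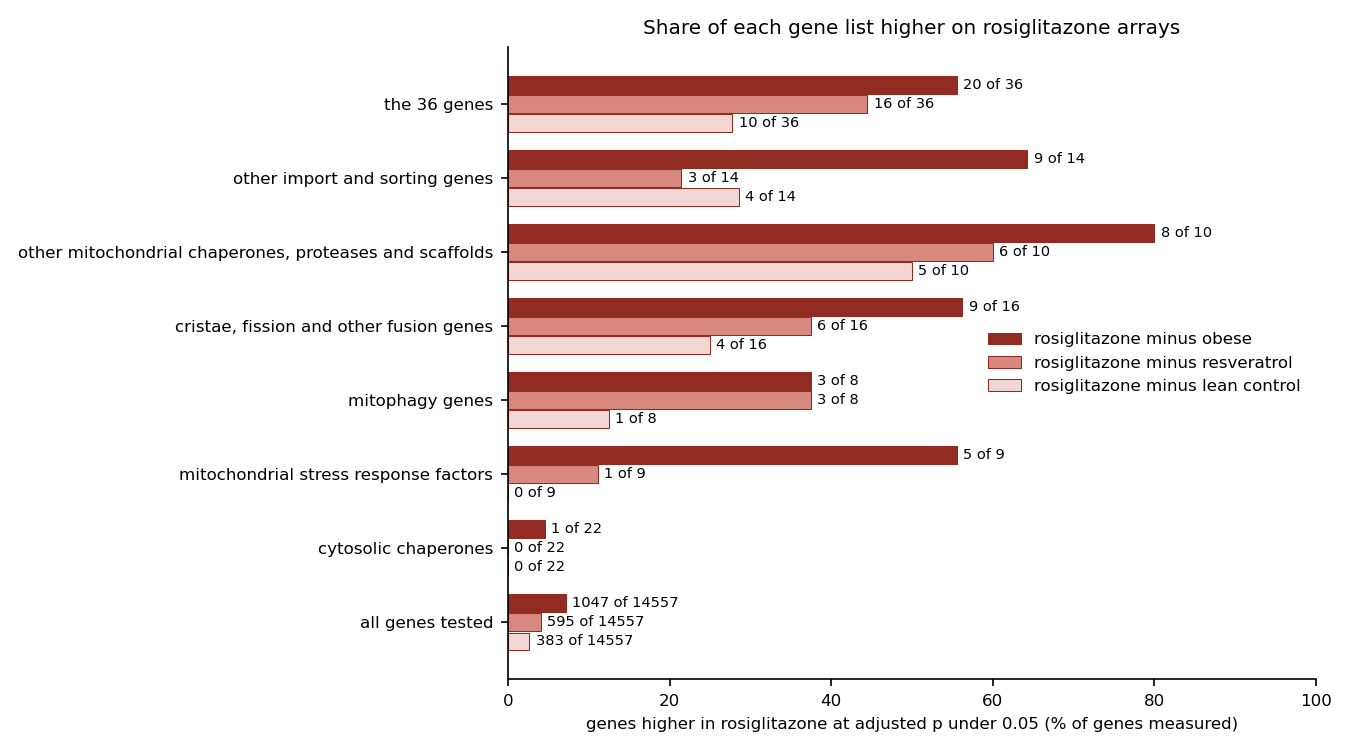
Share of measured genes higher in rosiglitazone arrays (x axis, %) for the 36 genes, 6 further lists and all genes tested, against obese, resveratrol and lean control arrays; the numbers beside the bars are counts. Against obese arrays the bars hold 20 of 36 genes, 8 of 10 other chaperones, proteases and scaffolds, 1 of 22 cytosolic chaperones and 1047 of 14557 genes tested.

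Against resveratrol arrays 18 of the 78 genes rose in rosiglitazone arrays and none fell, beside 4.09% of all genes higher: 3 other import genes, 6 other chaperones, proteases and scaffolds, 6 cristae and fission genes, 3 mitophagy genes and 1 stress response factor, with Phb2 counted in both its lists. Dnajc15 was higher by 1.37 (adjusted p = 0.000235), Mipep by 1.23 (adjusted p = 9.09e-05), Trap1 by 1.46 (adjusted p = 0.000235) and Chchd10 by 1.91 (adjusted p = 0.000235). Bnip3, a mitophagy receptor, passed in this comparison, higher by 1.15 (adjusted p = 0.0118). The stress response factor was Gdf15, at adjusted p = 0.0492, and its call was lost without rosiglitazone array 1 or 4 or resveratrol array 3, 4 or 5. Against lean control arrays 13 of the 78 genes rose and none fell, beside 2.63% of all genes higher, among them Samm50 by 1.16 (adjusted p = 0.00164), Trap1 by 1.27 (adjusted p = 0.000934) and Chchd10 by 1.20 (adjusted p = 0.0109); no stress response factor and no cytosolic chaperone passed in limma, and 2 and 3 of them had an unadjusted p under 0.05. Between resveratrol and obese arrays, and between obese and lean control arrays, no gene of these lists passed in limma, with 1 and 14 of the 78 at an unadjusted p under 0.05, and the median differences of the lists lay between 0.06 and 0.15 and between -0.34 and -0.11.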

How the data were processed

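Per the labels' protocols, each of the 20 rat samples gave 100 ng of total RNA for 1 Affymetrix array. The deposited table holds log2 values that the authors made with RMA, per the submitters' processing notes, which name no version; the settings were not given in the sources used here. Columns were assigned to samples by the labels. Of 36685 features, 14824 carried 1 symbol in the platform's gene table, 829 several, and 21032 were not listed; the brightest feature of each single symbol gave 14557 genes. No level was tested against background.

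Group means of all 20 arrays were fitted in R 4.3.3 by limma 3.58.1 (two-sided moderated tests from lmFit and eBayes, 16 residual and 5.41 prior degrees of freedom), with Benjamini-Hochberg adjustment over all genes in each of 6 comparisons. The fit was tested on simulated data. Members, lists and the 3 arrays left out together were chosen with earlier results of these data known, and the sequence patterns after their counts were seen. Every member could be named; levels on every array were given for a preset list of 13 measured members and for the largest and smallest difference of each comparison with calls, full statistics for up to 8 members and up to 4 genes of a list. Further genes named for values, or for a call lost under an alternative, were chosen after their values were seen. Same-numbered arrays of different groups had correlations of deviations between -0.21 and 0.36, so the numbers were not taken as pairs. Alternatives were another normalisation, centring, no dim genes, the mean of features, another variance model, array weights, the compared groups alone, a replicate block, no arrays that stand apart, and each array left out. Precision is limited by how many arrays there are; a difference had a median SE of 0.17.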

Additional observations from a re-analysis of the deposited data

Results flagged for a closer look

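Levels on single arrays that lay far from the other 4 of their group were sought in 68 sets of 5, for the 16 genes with values on every array and the mean of the members, by a gap to the nearest array of over 0.71 of the whole range. This took 7 values. A rate of about 1 in 20 by chance holds for independent sets. These sets share arrays and the mean is built from the members, so the count was not judged against that rate. On resveratrol array 1 Tomm40 was 4.64, with the next at 5.32, Timm17a was 5.28, with the next at 5.79, and Hspa9 was 8.18, with the next at 9.04. The mean deviation of the members on that array was -0.33, with the next at -0.13. On rosiglitazone array 2 Timm17a was 7.34, with the next at 6.36, and Pmpcb was 7.67, with the next at 6.84. On lean control array 4 Hspa9 was 8.86, with the next at 9.13. Resveratrol array 1 also carried the muscle and milk protein signal, and rosiglitazone array 2 the highest brown or beige adipocyte markers; their part in these values was not tested.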

How the results depend on the processing

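The median difference of the members kept its sign in all 6 comparisons under every alternative run. Between rosiglitazone and resveratrol arrays it was 0.37 without the 3 arrays that stood apart, against 0.60 with all arrays. Between rosiglitazone and lean control arrays 5 members passed with these groups fitted alone, against 10 in the fit of all arrays. Leaving out each array in turn gave 16 to 22 members for rosiglitazone against obese, 11 to 18 against resveratrol and 5 to 15 against lean control; 0 in each of the comparisons without rosiglitazone. The medians then ranged from 0.51 to 0.75, 0.44 to 0.65 and 0.34 to 0.48. Under all alternatives together 14 of 20, 9 of 16 and 4 of 10 members held their call. With the replicate number as a block 19, 15 and 9 members passed; it ended the calls of Timm13 against obese (adjusted p = 0.0526), Opa1 against resveratrol (0.0749) and Hspa9 against lean control (0.0586) in limma. Of 30 correlations between same-numbered arrays 5 were over 0.1, from -0.21 to 0.36 in all, and the labels do not say that a number marks a shared source. The causes were not tested.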
